A study of Rattus norvegicus with 6 samples.

Results

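Kinesins and dyneins are the proteins that walk along microtubules, and in a sensory neuron they connect the cell body in the ganglion with terminals far away in the skin and spinal cord. Most kinesins carry vesicles, mitochondria and cytoskeletal proteins outwards towards the terminal, whereas cytoplasmic dynein, with its activator dynactin, carries endosomes and signals from the periphery back to the nucleus. A separate set of kinesins builds the mitotic spindle and moves chromosomes, and these genes are normally expressed in dividing cells, which mature neurons are not.

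The genes described here were chosen by name alone: every gene whose only symbol in the array annotation began with Kif, Klc, Dync, Dynl or Dctn followed by the family's numbering. This gave 42 genes of the 13378 measured: 24 kinesin heavy and light chain genes, 12 dynein genes and 6 dynactin genes. Kif5b, Kif5c, Kif1a and Kif1b, which also belong to the transport kinesins, were not analysed here, the last because its 53 probe sets carried more than 1 symbol.

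RNA came from the L5 dorsal root ganglia (DRG) of male Wistar rats in 2 groups. The SNT group was taken 7 days after spinal nerve transection of the L5 nerve, an operation that cuts the peripheral axons of these neurons and is used as a model of neuropathic pain, and the naive group had no operation. There were 3 samples per group, each a pool of ganglia from 4 animals (12 animals per group), and each pool was hybridised to 1 exon array. The comparison is therefore of injured with unoperated rats, and no sham-operated group was analysed here, so the nerve injury and the surgery around it cannot be told apart. Values are log2 levels per gene and array. A gene was called when its Benjamini-Hochberg adjusted p from limma was below 0.1 over all genes, and errors of fold changes are standard errors (SE).

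The 3 SNT arrays correlated less tightly with each other (Pearson r across probe sets 0.958 to 0.969) than the 3 naive arrays did (0.984 to 0.986), and SNT 1 was the SNT array nearest to naive. The spread within SNT was also wider for the motor genes, with a median SD of 0.15 in SNT and 0.08 in naive, and in 33 of the 42 the SD was larger in SNT than in naive. The tissue label was checked against markers: all 13 measured pan-neuronal genes lay above the dim level of 5.11 (the 25th percentile of probe set means) in SNT and in naive. Of these 13, 8 were lower in SNT, led by Isl1 (-1.66 ± 0.24), Syt1, Nefm and Drgx, while the growth-associated Gap43 was higher (0.92 ± 0.09). The 15 macrophage markers were all higher in SNT, with a median of 1.56, and 7 of 9 T and NK cell markers were higher, led by Gzmb (3.29 ± 0.1). Satellite glia markers were mixed (4 higher and 3 lower of 10, with Gfap at 1.86 ± 0.26 and Fabp7 at -1.31 ± 0.19), as were Schwann cell markers (4 higher and 1 lower of 10), and of 8 endothelial markers only Tie1 was called (0.49 ± 0.16). In RNA from a whole ganglion, fewer cells of a type and less RNA per cell cannot be told apart.

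Of the 42 motor genes, 18 (42.9%) were lower in SNT and 8 (19.0%) were higher, against 23.3% lower and 12.9% higher among all genes tested. Together 61.9% of the motor genes were called, against a background of 36.3%. Their median change was -0.19, beside -0.02 for all genes. The 3 SNT and 3 naive values did not overlap for 30 of the 42 (71.4%), where the share among all genes was 45.7%. The changes were mostly below 2-fold: Dync1i1 and Kif22 were the 2 called genes past that size (4.76%, against 6.27% of all genes). These backgrounds held genes of every level, dim ones included. By percentile of level, the dynein 1, light chain and dynactin genes lay high, from 88.9 (Dctn1) to 99.9 (Dynll1). The mitotic kinesins lay low, from 8.38 (Kif20b) to 30.5 (Kif22), and the other kinesins ran from 14.8 (Kif2b) to 95.4 (Kif5a). A background of genes at matching levels was not tested.

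Counts by family ran in different directions, and the differences between families were not tested. Cytoplasmic dynein 1, its light chains and dynactin made up 16 genes, of which 12 were lower, 1 was higher and 3 were not called, with a median of -0.48. The 7 kinesins grouped here as mitotic, Kif2b not among them, had the opposite direction, with 5 higher, none lower and a median of 0.58. The other 17 kinesin genes were split, with 6 lower, 2 higher and 9 not called (median -0.01), and neither of the 2 dynein 2 genes was called. The medians of the dynein 1 and dynactin genes and of the mitotic kinesins kept their signs under every alternative tried, whereas the median of the other kinesins changed sign when each array was centred on its median (0.1) or scaled by cyclic loess (0.05).

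**Figure D1:**
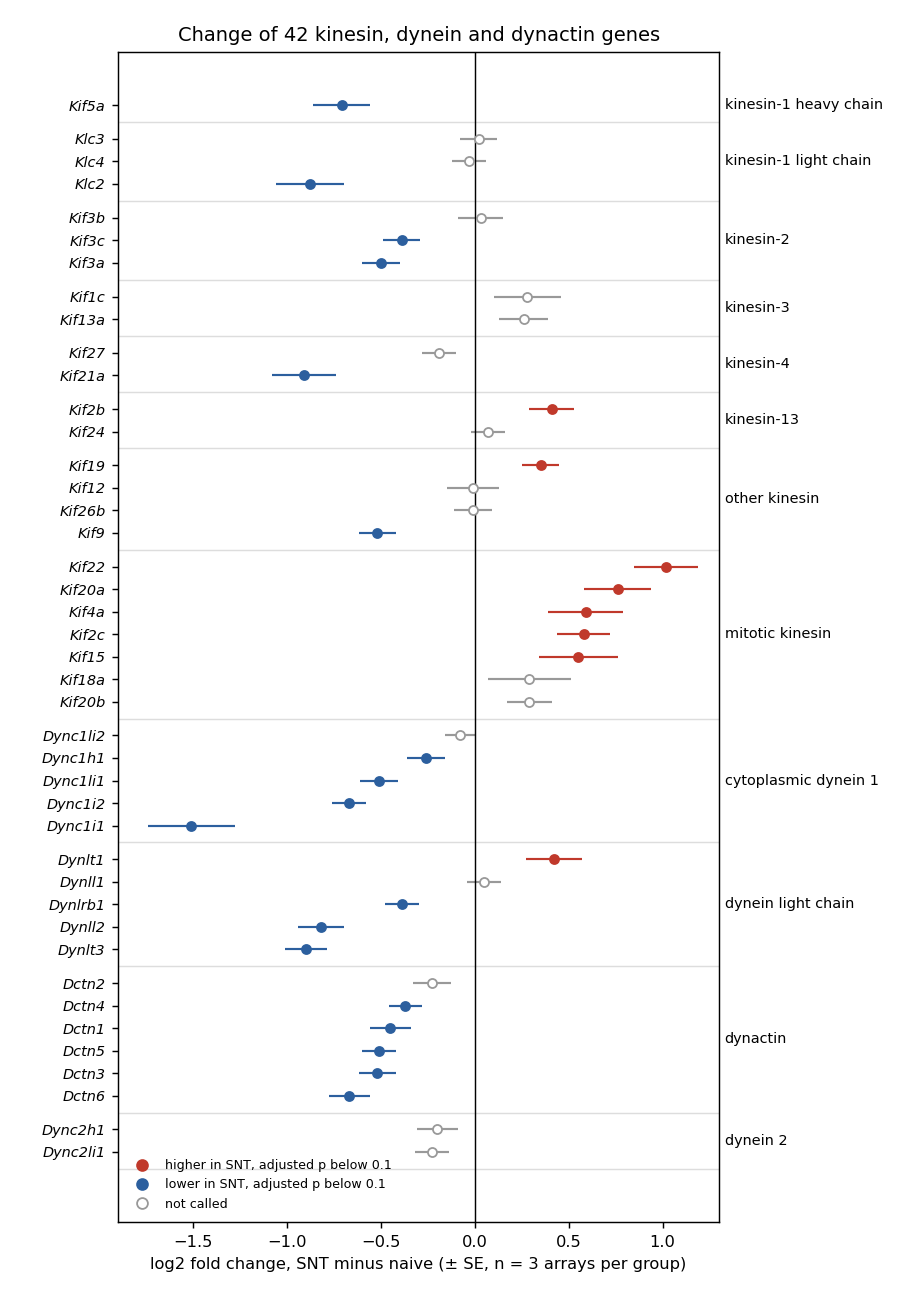
Log2 fold change (SNT minus naive, x axis) of each of the 42 genes, grouped by role, with bars of ± 1 SE (n = 3 arrays per group). Red points were called higher in SNT, blue points lower, and open grey points were not called. All 11 genes of cytoplasmic dynein 1 and dynactin lie left of 0, Dync1i1 farthest at -1.51, and all 7 mitotic kinesins lie right of 0.

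Of the 5 measured core genes of cytoplasmic dynein 1, 4 were lower in SNT and Dync1li2 was not called. Cytoplasmic dynein 1 is built of a heavy chain, which holds the motor, and of intermediate, light intermediate and light chains, which bind dynactin and cargo. Dync1i1, the intermediate chain form that is enriched in neurons, had log2 levels of 9.36, 8.36 and 8.83 in SNT, against 10.34, 10.45 and 10.28 in naive. The highest SNT array was thus well below the lowest naive array. The fold change was -1.51 ± 0.23 (adjusted p = 0.00453), which is 2.84-fold lower in SNT and the largest change among the 42 genes. All 19 of its probe sets were called lower, with changes between -2.3 and -0.75.

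Dync1i2, the intermediate chain found in most cell types, was at 10.19, 10.19 and 10.33 in SNT and at 10.95, 10.88 and 10.91 in naive. These 6 values left a wide gap between the groups, and the change of -0.67 ± 0.09 (adjusted p = 0.00306) was lower in every SNT array. Whether Dync1i1 fell by more than Dync1i2 was not tested. Dync1h1, the heavy chain, had 10.82, 10.64 and 10.84 in SNT and 11.09, 11.05 and 10.95 in naive. Its change was small (-0.26 ± 0.1, adjusted p = 0.0859), 4 of its 80 probe sets were called lower, and the call was lost without SNT 2 (adjusted p = 0.14) and without any 1 of the naive arrays (0.141 to 0.277). Of the light intermediate chains, which link the motor to adaptor proteins, Dync1li1 was lower (-0.51 ± 0.1) and Dync1li2 was not called (-0.08 ± 0.08, adjusted p = 0.52).

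The light chains did not move alike. Dynll2, one of a pair of closely related light chains that also bind many partners outside dynein, was at 10.83, 10.43 and 10.64 in SNT and 11.5, 11.53 and 11.35 in naive (-0.82 ± 0.12, adjusted p = 0.00426). Its partner Dynll1 lay at 12.7, 12.79 and 12.78 in SNT and 12.71, 12.61 and 12.8 in naive, and these values overlapped (0.05 ± 0.09, adjusted p = 0.716). The second pair, of the Tctex type, was called in opposite directions. Dynlt3 was at 10.36, 10.1 and 10.11 in SNT and 11.05, 11.18 and 11.06 in naive, a change of -0.9 ± 0.11 (adjusted p = 0.00243, the smallest of the 42). Dynlt1 was at 10.23, 10.8 and 10.63 in SNT and 10.07, 10.18 and 10.16 in naive, a change of 0.42 ± 0.15 (adjusted p = 0.0788). The groups of Dynlt1 were separated by the narrow gap under SNT 1, none of its 6 probe sets was called on its own, and the call held only without SNT 1 (adjusted p = 0.00636) among the fits that left out 1 array (0.193 to 0.231 in the others). Dynlrb1, the roadblock light chain, was lower (-0.39 ± 0.09). Dynll1 and Dynlt1 have similar copies in the rat genome with which probe sets could share signal.

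Dynactin attaches dynein to its cargo and keeps it on the microtubule, and 5 of the 6 subunits with a Dctn symbol were lower. Dctn1, the large subunit that grips the microtubule, was at 9.32, 9.1 and 9.4 in SNT and 9.79, 9.77 and 9.61 in naive (-0.45 ± 0.11, adjusted p = 0.0227). No SNT value reached the naive range, but the call was lost without naive 1 (adjusted p = 0.231) or naive 2 (0.16). Dctn6, at the pointed end of the dynactin filament, had 10.32, 10.19 and 10.45 in SNT and 10.98, 11.08 and 10.89 in naive (-0.67 ± 0.11, adjusted p = 0.00495), the largest change among the 6 Dctn genes. Its pointed-end neighbours Dctn5 (-0.51 ± 0.09) and Dctn4 (-0.37 ± 0.09) and the shoulder subunit Dctn3 (-0.52 ± 0.1) were also lower. Dctn2, dynamitin, was at 10.18, 10.02 and 10.19 in SNT and at 10.42, 10.42 and 10.24 in naive and did not pass the test (-0.23 ± 0.1, adjusted p = 0.133). In the current annotation Dctn1 and Dctn4 overlap neighbouring genes, and Dctn3 and Dctn5 have copies elsewhere.

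Among the kinesins outside the mitotic group, the 6 lower genes were Kif5a, Klc2, Kif3a, Kif3c, Kif21a and Kif9. Kif5a is the neuronal heavy chain of kinesin-1, the motor that carries mitochondria, vesicles and neurofilament proteins outwards. It was at 10.35, 9.81 and 10.07 in SNT and 10.8, 10.88 and 10.7 in naive. The groups were separate, the change was -0.71 ± 0.15 (adjusted p = 0.0114), and 21 of 34 probe sets were called lower. Klc2, a light chain that joins kinesin-1 to cargo, was at 9.97, 9.32 and 9.48 in SNT and 10.53, 10.58 and 10.29 in naive (-0.88 ± 0.18, adjusted p = 0.0109). The other light chains on the array, Klc3 (0.02 ± 0.1) and Klc4 (-0.03 ± 0.09), were not called.

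The kinesin-2 motor is a heterodimer of Kif3a with Kif3b or, mainly in neurons, with Kif3c, and it serves both axons and cilia. Kif3a was at 8.81, 8.74 and 9.01 in SNT and 9.42, 9.32 and 9.32 in naive (-0.5 ± 0.1, adjusted p = 0.0112). Kif3c was also lower, at 9.87, 9.69 and 9.9 in SNT and 10.26, 10.23 and 10.15 in naive (-0.39 ± 0.1, adjusted p = 0.0208). Kif3b, by contrast, had overlapping groups, at 8.73, 8.59 and 8.96 in SNT and 8.76, 8.78 and 8.65 in naive (0.03 ± 0.12, adjusted p = 0.876). A difference between the response of Kif3b and that of its partners was not tested.

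Kif21a, a kinesin-4 motor that acts on microtubule growth and is mutated in an inherited disorder of the nerves to the eye muscles, had the largest fall among the kinesins. Its levels were 10.04, 9.34 and 9.57 in SNT and 10.6, 10.57 and 10.52 in naive, with the naive arrays close together and every SNT array below them. The change was -0.91 ± 0.17 (adjusted p = 0.00879), and 36 of 42 probe sets were called lower, from the smallest change of -0.28 to the deepest of -2.18. The vesicle motors of the kinesin-3 family stood on the other side of 0 without passing the test: Kif1c at 0.28 ± 0.18 (adjusted p = 0.278) and Kif13a at 0.26 ± 0.13 (adjusted p = 0.179). Kif1c was at 7.7 in SNT 1, inside the naive range of 7.64 to 7.93, and at 8.31 and 8.25 in SNT 2 and SNT 3.

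**Figure D2:**
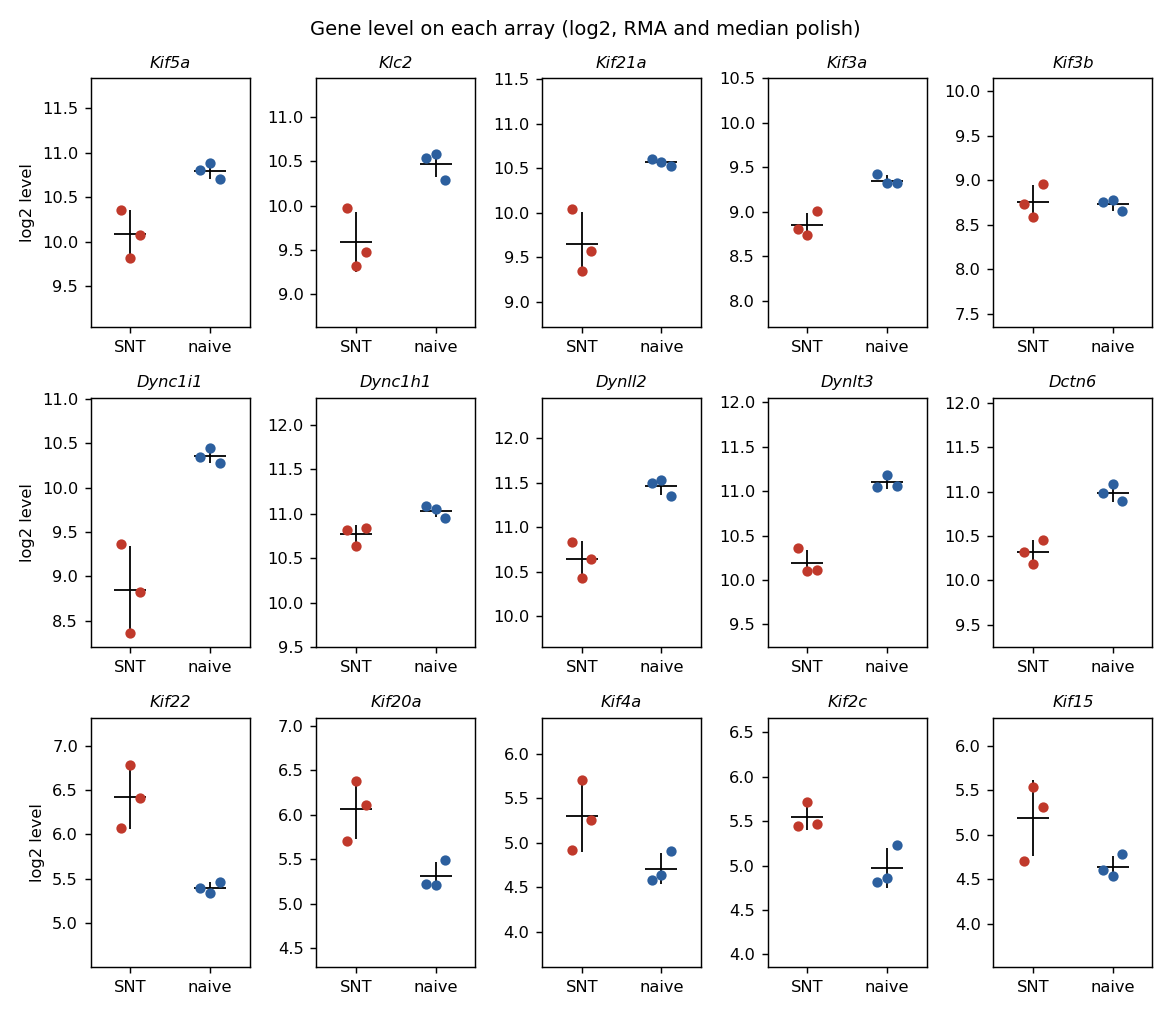
Log2 level (y axis, each panel with its own range of the same height) of 15 motor genes on each SNT array (red) and each naive array (blue), with the mean as a horizontal line and ± 1 SD as a vertical line (n = 3 per group). Transport kinesins fill the top row, dynein and dynactin the middle row and mitotic kinesins the bottom row. In Dync1i1 the SNT arrays span 8.36 to 9.36, below all naive arrays, and in Kif15 SNT 1 (4.71) lies inside the naive range.

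Of the remaining kinesins outside the mitotic group, which include motors of cilia and microtubule depolymerases, Kif9 was lower, Kif19 and Kif2b were higher and 4 were not called. Kif9, a motor of cilia and flagella, was lower, at 5.29, 5.06 and 5.02 in SNT and 5.71, 5.59 and 5.62 in naive (-0.52 ± 0.1, adjusted p = 0.0109), though not in 3 of the 6 fits that left out 1 array (adjusted p = 0.152 without SNT 2, 0.146 without SNT 3 and 0.119 without naive 1). In SNT 2 and SNT 3 Kif9 lay below the dim level of 5.11, and 11 of its 21 probe sets had means above it. Kif19, which trims the microtubules of motile cilia, was at 8.59, 8.72 and 8.72 in SNT and 8.41, 8.17 and 8.39 in naive (0.35 ± 0.1, adjusted p = 0.0394) with a call that held without SNT 1 (adjusted p = 0.0907) or naive 3 (0.0836) and was lost in the other 4 fits (0.105 to 0.153). Kif2b, a microtubule depolymerase that also acts in mitosis but was not counted in the mitotic group, was at 4.99, 4.74 and 4.67 in SNT. In naive it was at 4.52, 4.33 and 4.32 (0.41 ± 0.12, adjusted p = 0.0375). Both group means of Kif2b lay below the dim level of 5.11, so a transcript at background would give similar values. Its call was lost without SNT 2 (adjusted p = 0.106) or naive 3 (0.147). Kif24, a depolymerase of the centriole (0.07 ± 0.09), Kif27, related to a hedgehog pathway protein of Drosophila (-0.19 ± 0.09), Kif12, expressed in kidney and liver (-0.01 ± 0.14), and Kif26b, which acts in Wnt signalling and kidney development (-0.01 ± 0.1), were not called. Kif24 lay below the dim level on all 6 arrays. Kif9 and Kif19 each overlap a neighbouring gene in the current annotation, and Kif27 overlaps a gene named as its copy.

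Dynein 2, with its heavy chain Dync2h1 and light intermediate chain Dync2li1, is the motor that brings proteins back along cilia. Neither gene passed the test, at -0.2 ± 0.11 (adjusted p = 0.25) and -0.23 ± 0.09 (adjusted p = 0.109), with 2 of 95 probe sets of Dync2h1 and 3 of 15 of Dync2li1 called lower. Dync2li1 did not overlap between groups (6.44, 6.41 and 6.56 in SNT, against 6.65, 6.66 and 6.79 in naive). A further 5 genes carry a dynein symbol only in the current nomenclature and so fell outside the rule. Among them Dynlt2b was lower (-0.76 ± 0.12, adjusted p = 0.00469) and Dync2i2 was higher (0.26 ± 0.09, adjusted p = 0.0816), while Dync2i1 (-0.14 ± 0.09), Dynlt2 (0.14 ± 0.1) and Dynlt4 (-0.18 ± 0.27) were not called.

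Of the 7 mitotic kinesins 5 were called higher in SNT. Kif22, a chromokinesin that pushes chromosome arms towards the spindle equator, was at 6.07, 6.78 and 6.41 in SNT and 5.4, 5.34 and 5.47 in naive. Every SNT array exceeded every naive array, and the change of 1.02 ± 0.17 (2.02-fold, adjusted p = 0.00628) was the largest rise of the 42 genes. Kif20a, which brings Aurora B kinase to the spindle midzone, was at 5.71, 6.38 and 6.11 in SNT and 5.22, 5.21 and 5.49 in naive (0.76 ± 0.18, adjusted p = 0.0187). Kif2c, the depolymerase that corrects attachments at the centromere, was at 5.45, 5.72 and 5.47 in SNT and 4.82, 4.86 and 5.23 in naive (0.58 ± 0.14, adjusted p = 0.0219). The groups of both genes were separate.

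Kif4a, a chromokinesin of the central spindle, was at 4.92, 5.71 and 5.26 in SNT and 4.58, 4.64 and 4.91 in naive (0.59 ± 0.2, adjusted p = 0.069), with SNT 1 level with naive 3. Kif15, which helps to hold the spindle poles apart, was at 4.71, 5.54 and 5.31 in SNT and 4.61, 4.54 and 4.78 in naive (0.55 ± 0.21, adjusted p = 0.0919), and its groups overlapped. Kif18a, which aligns chromosomes (0.29 ± 0.22, adjusted p = 0.372), and Kif20b, which acts in the last step of cell division (0.29 ± 0.12, adjusted p = 0.105), were not called. In Kif18a only SNT 2, at 5.73, stood clearly above the naive range of 4.78 to 5.27. Kif20b lay below the dim level of 5.11 on all 6 arrays, and Kif4a and Kif15 lay below it in SNT 1 and in every naive array. Kif18a lay below it in SNT 1, naive 1 and naive 2, and Kif2c in naive 1 and naive 2.

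The count of mitotic kinesins called depended on single arrays. It was 5 of 7 with all 6 arrays and 6 without SNT 1, but 3 without SNT 2, 2 without SNT 3 or naive 3, and 1 without naive 1 or naive 2. Kif20a lost its call without SNT 3, naive 1 or naive 2 (adjusted p = 0.109 to 0.123) and Kif2c without any 1 of the naive arrays (0.11 to 0.297), while Kif4a and Kif15 kept theirs only without SNT 1 (0.0319 and 0.0204). Over all motor genes the higher count was 2 or 3 without any 1 array other than SNT 1. Kif22 was the only one of the 8 higher genes whose call stood in every such fit, whereas 15 of the 18 lower genes kept theirs, the exceptions being Dync1h1, Dctn1 and Kif9.

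Because the mitotic kinesins shared a direction, sequences around a start site are shown for 4 of them. These 4 are the higher mitotic genes with a TTTGAA or CCAAT motif in the stretch printed. Dync1i1, the gene with the deepest fall, which held neither, is shown with them. TTTGAA is the core of the cell cycle homology region and CCAAT the core of the box bound by NF-Y, and both are known from promoters of genes expressed in dividing cells. Each stretch runs 5′ to 3′ on the strand of its gene, from 150 bases before to 20 bases after the start site set for its promoter window in GRCr8. Capitals mark either motif on either strand. This start is not always the outer end of the gene. By the gene bounds, Kif22 begins at 191080955, Kif4a at 69761803, Kif15 at 131479340 and Dync1i1 at 34819313, all upstream of the start used. For Kif20a the gene bound is the start used. The positions are chr1:191080859-191081028 (minus strand) for Kif22, chrX:69761733-69761902 (plus) for Kif4a, chr8:131479254-131479423 (plus) for Kif15, chr18:26504272-26504441 (plus) for Kif20a and chr4:34819291-34819460 (plus) for Dync1i1.
Kif22: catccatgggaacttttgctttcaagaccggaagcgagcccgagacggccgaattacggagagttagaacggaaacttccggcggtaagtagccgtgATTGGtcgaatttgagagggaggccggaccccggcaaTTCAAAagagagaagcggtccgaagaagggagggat
Kif4a: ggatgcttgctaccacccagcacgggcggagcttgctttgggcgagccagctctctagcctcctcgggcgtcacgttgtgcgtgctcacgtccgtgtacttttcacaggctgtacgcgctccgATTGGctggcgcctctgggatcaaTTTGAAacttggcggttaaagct
Kif15: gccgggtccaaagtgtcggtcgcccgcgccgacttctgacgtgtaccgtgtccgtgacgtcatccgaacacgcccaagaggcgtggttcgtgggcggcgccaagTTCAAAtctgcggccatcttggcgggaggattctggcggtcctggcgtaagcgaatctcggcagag
Kif20a: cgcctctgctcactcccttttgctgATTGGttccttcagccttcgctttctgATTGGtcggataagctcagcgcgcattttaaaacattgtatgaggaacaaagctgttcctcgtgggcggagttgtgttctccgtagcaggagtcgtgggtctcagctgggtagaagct
Dync1i1: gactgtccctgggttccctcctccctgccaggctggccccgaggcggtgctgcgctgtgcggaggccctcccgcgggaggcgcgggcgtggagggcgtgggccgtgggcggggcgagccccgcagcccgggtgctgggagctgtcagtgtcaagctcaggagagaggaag

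Within these stretches, positions are counted from the start site of the window to the first base of the match as printed. By the gene bounds, the matches given for Kif22, Kif4a and Kif15 lie inside the gene and not before it. Kif22 held TTTGAA at -16 and CCAAT at -53, both on the other strand. Kif4a held TTTGAA at -3 and, on the other strand, CCAAT at -27. Kif15 held TTTGAA at -46 on the other strand. Kif20a held CCAAT at -125 and -98, both on the other strand, with no TTTGAA. Over windows of 250 bases before to 50 after the start, a window was found for 34 of the 42 motor genes, including all 7 mitotic kinesins. TTTGAA stood in 4 of the 7 (Kif22, Kif4a, Kif15 and Kif20b) and in 6 of the 34, against 18.3% of the 33469 windows of all genes. CCAAT stood in 4 of the 7 and in 14 of the 34, against 37.5% of all windows. Kif2c and Kif18a held neither. Genes called lower also held these motifs in their windows: CCAAT in Dync1i2, Dctn3, Dctn5 and Klc2, and TTTGAA in Dctn1.

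These motifs were picked out of 9 searched on both strands, after the changes of the genes and the matches had been seen, and so they carry no test. The other 7 were TTCGAA (1 of the 34 motor genes, 1.69% of all windows), TTTCCCGC (0 of 34, 0.974%), TTTGGCGC (1 of 34, Kif18a, 0.493%), TGACGTCA (3 of 34, 1.83%), TGACG, which is contained in TGACGTCA (12 of 34, 21.2%), TGANTCA (2 of 34, Kif21a and Klc4, 7.33%) and GGGCGG (24 of 34, 33.1%). A match describes letters in a window and is no evidence that a factor binds there.

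Markers of other processes are set beside the families, and they are given per array because the 3 SNT arrays differed. The mitotic kinesins had a median difference from the naive mean of 0.21 in SNT 1, 0.9 in SNT 2 and 0.55 in SNT 3. Proliferation markers followed the same order of arrays, at 0.46, 1.22 and 0.78, and 14 of 18 measured were higher with none lower, led by Cdk1 (1.42 ± 0.36), Top2a (1.3 ± 0.31), Mki67 (1.28 ± 0.38) and Cdc20 (1.21 ± 0.21). Their mean level was 6.22 to 7.02 in SNT and 5.73 to 6.07 in naive, and 17 of the 18 in SNT and 14 in naive were above the dim level. Macrophage markers also ranked the arrays this way, at 0.97, 2.16 and 1.66, with a mean level of 8.96 to 10.01 in SNT and 7.53 to 8.03 in naive, led by Cd68 (3.11 ± 0.33) and Mpeg1 (2.73 ± 0.3). The part of dividing or immune cells in the rise of the mitotic kinesins was not tested.

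Beside the lower genes stood the pan-neuronal markers, at -0.41 in SNT 1, -0.85 in SNT 2 and -0.64 in SNT 3. The genes of dynein 1 and dynactin were at -0.42, -0.6 and -0.4 in the same arrays. Both sets were lowest in SNT 2, but the smallest change was in SNT 1 for the markers and in SNT 3 for the motor genes. Mean levels of the pan-neuronal list were 10.29 to 10.78 in SNT and 11 to 11.16 in naive, and within it Tubb3 (-0.01 ± 0.11) and Stmn2 (0 ± 0.09) were not called. The part of neuronal content in the fall of the motor genes was not tested. Without SNT 1, the array nearest to naive, the dynein 1 and dynactin genes gave 13 lower and 1 higher of 16 (median -0.5), and the other kinesins gave 6 lower and 4 higher of 17.

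**Figure D3:**
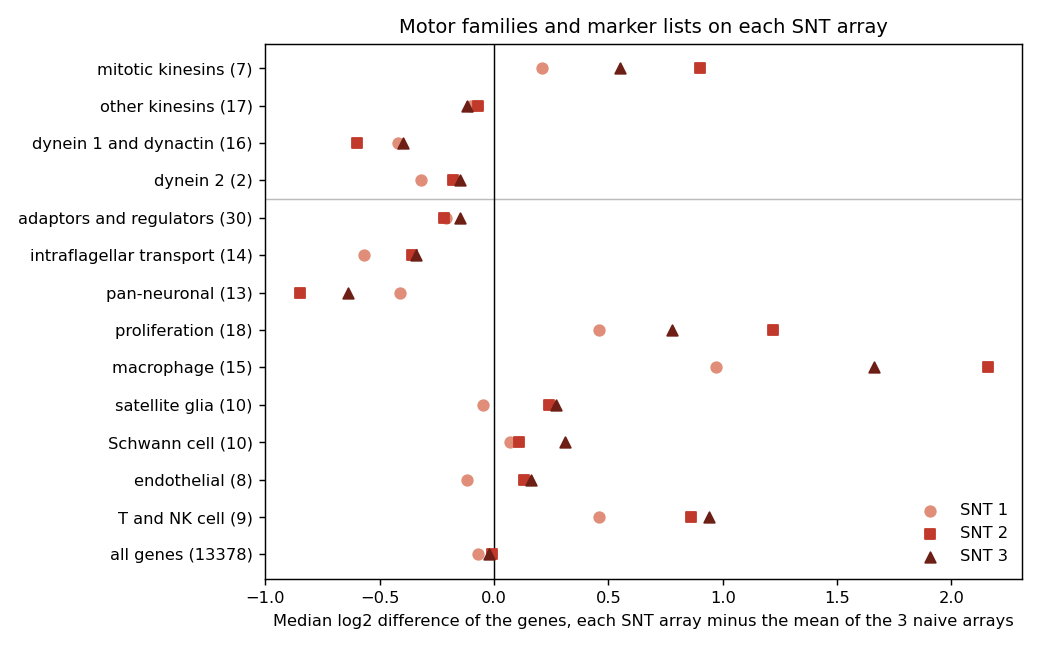
Median over the genes of each family or marker list (number of genes in brackets) of the log2 difference between 1 SNT array and the mean of the 3 naive arrays (x axis). Circles are SNT 1, squares SNT 2 and triangles SNT 3. Mitotic kinesins (0.21, 0.9 and 0.55), proliferation and macrophage markers lie right of 0 on all 3 arrays, dynein 1 and dynactin genes and pan-neuronal markers left of it, and SNT 1 has the smallest difference of the 3 in the mitotic, proliferation, macrophage and pan-neuronal rows.

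Other transport genes were taken from 2 lists. In a list of 30 measured adaptors and regulators of kinesin and dynein, 12 were lower and none was higher. Among all genes 23.3% were lower and 12.9% higher. The median of the list was -0.19, the same as over the motor genes. Its members also included the motor Kifc1 and other genes of the dynactin complex (Actr10, Capza1 and Capzb). Without naive 1 or naive 2 the lower adaptors numbered 7, and 2 were higher without SNT 1 and 1 without SNT 3. Fez1, an adaptor of kinesin-1, was at 8.96, 8.21 and 8.48 in SNT and 10.1, 10.21 and 10.13 in naive (-1.6 ± 0.18, adjusted p = 0.00225). Rab3a, a small GTPase of synaptic vesicles, was at 10.65, 9.54 and 9.83 in SNT and 11.5, 11.69 and 11.42 in naive (-1.53 ± 0.27, adjusted p = 0.00657). Both had every SNT array below every naive array. Actr10, another pointed-end dynactin subunit outside the naming rule (-0.88 ± 0.09), and the scaffold Mapk8ip2 (-0.85 ± 0.22) were next.

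Intraflagellar transport, the movement along cilia that uses kinesin-2 and dynein 2, was represented by 14 measured genes. Of these 9 were lower, none was higher and the median was -0.41, beside 23.3% lower and 12.9% higher among all genes. Without naive 1 or naive 2, 5 were lower. Ift22 had the largest change, at 8.39, 8.31 and 8.22 in SNT and 9.09, 9.24 and 8.98 in naive (-0.8 ± 0.1, adjusted p = 0.003), followed by Ift80 (-0.62 ± 0.14), Cluap1 (-0.55 ± 0.1) and Ift27 (-0.53 ± 0.13). This list had its lowest median in SNT 1 (-0.57, against -0.36 in SNT 2 and -0.34 in SNT 3), which was not the order of arrays seen in the pan-neuronal list.

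Each gene was read by several probe sets, each of about 1 exon, so the evenness of a change along a gene could be examined. Over the motor genes 177 of 938 probe sets (18.9%) were called lower and 44 (4.69%) higher, against 10.7% and 5.16% of all 226599 probe sets (15.9% called in either direction). That background is an unlike set, since it includes 60049 probe sets without a gene symbol, whereas every motor probe set carried 1. Without naive 1, naive 2, naive 3 or SNT 2 the lower probe sets numbered 42, 49, 71 and 101, and the higher ones 14, 15, 25 and 25, while without SNT 1 there were 95 higher. In 13 genes (31.0%) every probe set changed downwards in sign and in 4 (9.52%) every one upwards. The share among all genes was not determined, so these counts have no background. Such agreement is easier to reach with few probe sets, as in Dynlrb1 with 5 and Dynlt1 with 6. Dync1i1, Kif21a, Kif5a, Kif3a, Dynlt3 and Dynll2 were among the 13, and the 4 were Kif20a, Kif22, Kif18a and Dynlt1.

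A few genes had probe sets that departed from the rest. The F test for unequal probe sets called 13 of 41 motor genes (31.7%, against 19.5% of the 10741 genes tested), with the smallest p for Kif22 (adjusted p = 1.32e-08), Klc2 (0.000201), Kif2c (0.000375) and Dynlt3 (0.0141). On simulated data 67% of the calls of this F test were false. A test of each probe set against the value of its gene was added after the data were seen, and had 4.23% false calls on the same simulation. It called 6 of 41 motor genes (14.6%, against 8.31% of genes): Kif22, Kif20a, Klc2, Dynlt3, Kif2c and Kif9. That simulation raised the brightest probe set of each of 100 genes by 2 (log2) and changed no gene as a whole. In the data all 6 genes were called as a whole, so neither false share need hold for them.

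Kif22 was the plainest case. One of its 16 probe sets was at 10.68, 11.35 and 11.54 in SNT and at 7.57, 7.3 and 7.55 in naive, a change of 3.72 ± 0.25 where the gene as a whole gave 1.02. The next was at 9.87, 10.53 and 10.69 in SNT and 7.18, 7.37 and 7.85 in naive (2.9 ± 0.28). Another was at 9.49, 10.3 and 10.58 in SNT and 7.64, 7.56 and 7.64 in naive (2.51 ± 0.28). These 3 lay well above the dim level of 5.11 on every array. The changes of the other probe sets of Kif22 ran between 0.17 and 2.43. The gene overlaps an uncharacterised long non-coding RNA gene in GRCr8, and positions of probe sets were not used here, so probe sets of Kif22 that read another transcript could not be identified.

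By the test of each probe set against its gene value, 1 probe set stood apart in each of the other 5 genes. Klc2 had one at 12.02, 11.9 and 11.94 in SNT and 11.75, 11.82 and 11.74 in naive, a change of 0.19 ± 0.16 in a gene that was lower by 0.88, and 16 of its 21 probe sets were called lower down to -1.61. In Kif9 one was at 0.69 ± 0.24 against -0.52 for the gene. In Kif2c (1.85 ± 0.28), Kif20a (1.68 ± 0.23) and Dynlt3 (-1.56 ± 0.17) the departing probe set moved in the direction of its gene but further. Probe sets not called by this test also went against their gene, up to 0.23 in Klc2 and down to -0.52 in Kif2c. Klc2, Kif9 and Kif20a overlap other genes in the current annotation.

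**Figure D4:**
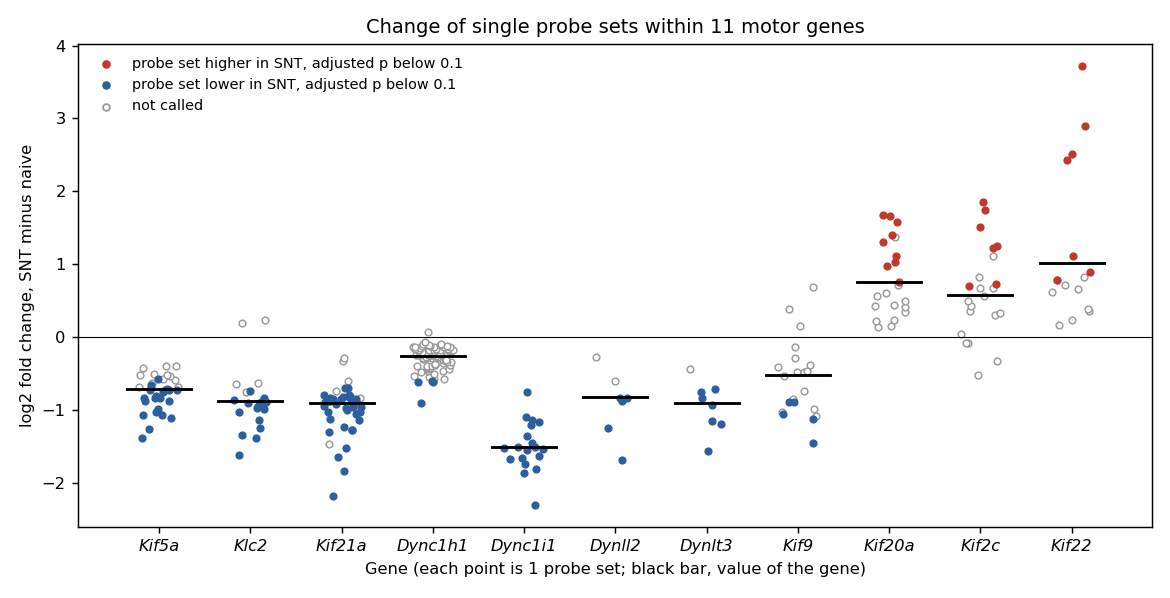
Log2 fold change (SNT minus naive, y axis) of every probe set of 11 motor genes, with the value of the gene as a black bar. Red and blue points were called higher or lower in SNT and open points were not called. All 19 probe sets of Dync1i1 lie between -2.3 and -0.75, whereas those of Kif22 reach from 0.17 to 3.72 around a gene value of 1.02.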

How the data were processed

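The deposited values were log2 levels of 226599 probe sets on 6 Affymetrix Rat Exon arrays. The authors made these log2 values by robust multi-array averaging (RMA, which corrects background, quantile normalises between arrays and summarises probes) with oligo, per the submitters' processing notes, and their versions were not given there. Quantile normalisation makes every change relative to the whole array, and no detection calls were used.

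The 164162 probe sets with exactly 1 gene symbol were combined into 13378 gene values by Tukey median polish (at most 20 iterations), with symbols updated through the GRCr8 gene table (Kif4 to Kif4a, Kif19a to Kif19). SNT was compared with naive in limma 3.58.1 (R 4.3.3) by lmFit and eBayes, group as the only term, two-sided, with a false discovery rate of 0.1 as in the study's methods. Probe sets were fitted the same way. Unequal probe sets were sought by diffSplice in 10741 genes with at least 3 probe sets above 5.11. The precision is limited by 3 arrays per group, and each array stood for a pool of animals. On simulated data the gene test recovered 38% of planted changes of 0.5, 78% of 1 and 98% of 2 (log2). Of its calls 8.75% were false over 13378 genes. The planted changes numbered 50, 100 and 50, whereas 4851 genes were called in the data. Recovery and false calls with that many changed genes were not tested.

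The 42 genes were all measured, with no filter on low values. 7 probe sets annotated to an older locus name were merged into Kif26b. Every gene was named under its role, and values on every array were given for the 8 largest rises and falls among called genes and for defining subunits, further genes being chosen after their values were seen. The motor genes, gene lists and tests were chosen with earlier results of these data known. Alternatives were array weights, other scalings, other summaries of the probe sets, a stricter false discovery rate, a trended variance, the removal of dim probe sets, the replicate number as a block, and fits without 1 array.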

Additional observations from a re-analysis of the deposited data

How the results depend on the processing

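Of the 26 called motor genes, 10 kept their call under every alternative (Dctn6, Dync1i1, Dync1i2, Dynll2, Dynlt3, Kif21a, Kif22, Kif3a, Kif5a and Klc2), and 16 kept it when each array was left out in turn. Leaving out 1 array gave 2 to 11 higher and 15 to 19 lower motor genes, 14 to 95 higher and 42 to 212 lower probe sets, 2 to 16 genes with unequal probe sets (by the F test, of whose calls 67% were false on simulated data), 0 to 2 adaptors higher and 7 to 14 lower, and 5 to 9 intraflagellar transport genes lower; the lowest counts of motor probe sets came without naive 1. At a false discovery rate of 0.05 there were 5 higher motor genes and 22 higher and 108 lower probe sets. The trended, robust variance model gave 268 lower probe sets. The most variable probe set per gene gave 2 higher and 11 lower motor genes. Testing each probe set against its gene value, chosen after seeing the data, left 6 genes with unequal probe sets. Among adaptors, none of which was called higher, 2 became higher with array weights, with cyclic loess and with probe sets above the dim level, 1 with the mean of probe sets and 3 with each array centred on its median, which also gave 76 higher probe sets. With centring the median of all genes was 0.09 in place of -0.02, and higher genes were 56.2% of all called in place of 35.7% (46.1% with cyclic loess). The cause of these shifts was not tested.

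Only motor genes that were not called changed sign. With array weights Klc3 was at -0.03 and Klc4 at 0.02. With cyclic loess Kif12 and Kif26b were at 0.05 and Klc4 at 0.03. With centred arrays Dync1li2 was at 0.03, Kif12 and Kif26b at 0.1 and Klc4 at 0.08. With the mean of probe sets Kif12 was at 0.07 and Kif3b at -0.01. With the most variable probe set Kif13a was at -1.27, Kif20b at -0.59, Kif24 at -0.46, Kif26b at 0.95, Kif3b at -0.47 and Klc3 at -0.51, and with probe sets above the dim level Kif26b was at 0.05. Leaving out 1 array gave -0.1 to 0.11 for Kif12, -0.04 to 0.05 for Kif26b, -0.05 to 0.13 for Kif3b, -0.04 to 0.08 for Klc3 and -0.05 to 0.02 for Klc4.

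Deviations of same-numbered SNT and naive arrays from their group means correlated at -0.092, -0.062 and 0.001, and those of differently numbered arrays at -0.116 to 0.162. Whether same-numbered arrays were processed together cannot be decided from these values, since deviations within groups of 3 constrain each other. With the replicate number as a block, 7 motor genes were higher and 17 lower.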
